A study of Sus scrofa with 8 samples.

Results

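The transcripts described here were lower in the lung of Tibetan pigs at low altitude (TL) than in all other pigs of a migrant design. They were chosen on the array values themselves. A transcript is taken here as 1 array probe that carries a RefSeq accession, that is, a sequence in the reference collection of known and predicted transcripts. It was a member where the scanner called the probe well above background on all 6 arrays of the other groups, and where the higher TL array lay over 1 log2 unit below the lowest of these 6 arrays in the deposited log2 values. This held for 228 of 2651 eligible RefSeq transcripts, out of 3250 RefSeq transcripts and 43603 transcripts on the array. A gene symbol was matched to 192 members, which stand for 169 genes, and 36 members had none. Curated accessions made up 190 members, and 38 were predicted transcripts.

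Lung RNA was taken from Tibetan and Duroc pigs at 6 months of age, 2 pigs per group and 1 pig per array. Tibetan pigs at high altitude (TH) stayed where the breed was raised, at 3500 m, and Duroc pigs at low altitude (DL) stayed at 40 m. At 1 month of age other Tibetan piglets were moved down to 40 m (TL) and other Duroc piglets were moved up to 3500 m (DH). All were females without a known genetic relationship, no allele was altered, and no agent was given, so that the groups differ in breed, in altitude and in the move. TH and DL were thus never moved, whereas TL and DH were. With 2 pigs per group the p-values below measure the spread between these pigs alone.

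The arrays were not alike in signal. Both TL arrays had a median raw spot signal of 324 and 333.5, against 207.5 to 230 on the other 6 arrays, and 31722 and 31641 transcripts well above background, against 26464 to 29316. No spot was saturated. TL shared a slide with DH, and TH shared the other slide with DL, so that TL and DH, or TH and DL, can be compared within a slide. The moved pigs were therefore all on 1 slide and the others on the other slide, and the move and the slide cannot be told apart. Markers of alveolar type II cells, among them the surfactant proteins SFTPA1, SFTPB and SFTPC, were present as lung tissue requires, with a summed log2 level between 18.91 and 19.34 on all 8 arrays. Because the rule used TL against the other 6 arrays, the TL values below are a description and carry no test. In whole tissue, fewer cells of a type and less RNA per cell cannot be told apart.

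Several kinds of gene made up the members. Insulin-like growth factor II is a growth factor of fetal and early life, and binding proteins of the IGFBP family and the acid labile subunit carry it in blood. T and B lymphocytes recognize antigen through receptors whose signaling chains include CD3 and CD79, and they are steered by cytokines, chemokines and their receptors. The endothelins, nitric oxide and angiotensin-converting enzyme set the tone of vessels, and the lung is a main site of angiotensin conversion. Enzymes of the cytochrome P450 family oxidize foreign compounds, and lipases and droplet proteins store and release triglyceride.

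The same gap was then read for each group in turn. Among RefSeq transcripts, TL was set apart downward for 228 of 2651 (8.6%), TH for 24 of 2662 (0.902%), DH for 20 of 2684 (0.745%) and DL for 13 of 2676 (0.486%). Upward, the counts were 48 of 2848 (1.69%) for TL, 113 of 2798 (4.04%) for TH, 15 of 2708 (0.554%) for DH and 20 of 2727 (0.733%) for DL. Among transcripts without a RefSeq accession, TL was lower for 1427 of 22172 (6.44%) and higher for 4028 of 28103 (14.3%). For the other groups, these shares of transcripts without a RefSeq accession were at most 1.64% and 1.87%. Among RefSeq transcripts, TL was thus the group most often set apart downward and TH the group most often set apart upward. In TL, RefSeq transcripts were more often on the low side and other transcripts on the high side. Over all eligible transcripts of both kinds, 6.67% met the gap that defines the members.

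**Figure D1:**
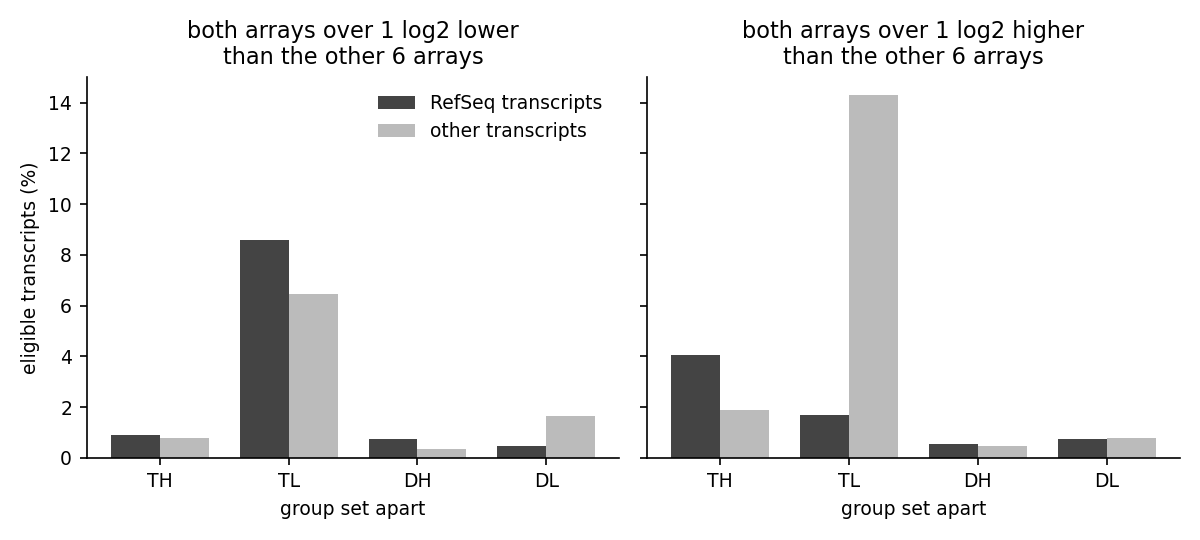
Share of eligible transcripts (%, y axis) whose 2 arrays of a group (x axis) both lay over 1 log2 unit below (left) or above (right) the other 6 arrays in the deposited values, for RefSeq (dark) and other transcripts (light). TL had 8.6% of RefSeq transcripts on the low side, against under 1% for each other group, and 14.3% of other transcripts on the high side.

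The size of the difference is given from here on in values recomputed from the raw spot signals, as normalized log2 levels. Over the 228 members, the mean of TL minus the mean of the 3 other group means had a median of -1.48, with quartiles of -1.76 and -1.32 and a range from -3.58 to -0.90. The same median was -0.29 over all eligible RefSeq transcripts and -0.15 over all 34401 tested transcripts. Within the slide that TL shares with DH, TL minus DH had a median of -1.46 over the members, and across slides it was -1.54 against TH and -1.40 against DL. The 2 TL pigs were close to each other, with a median distance of 0.07 between the TL arrays and a largest distance of 0.68.

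Members had a lower signal than the rest. The mean level of TH, DH and DL had a median of 10.11 over members, against 12.20 over eligible RefSeq transcripts that were not members. Members were 24 of 232 eligible transcripts (10.34%) with a mean under 8, 86 of 533 (16.14%) from 8 to 10, 85 of 586 (14.51%) from 10 to 12, 25 of 600 (4.167%) from 12 to 14 and 8 of 700 (1.143%) at 14 or more. The signal of a probe also depends on the probe itself, and the part of signal level in the choice of members was not tested.

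**Figure D2:**
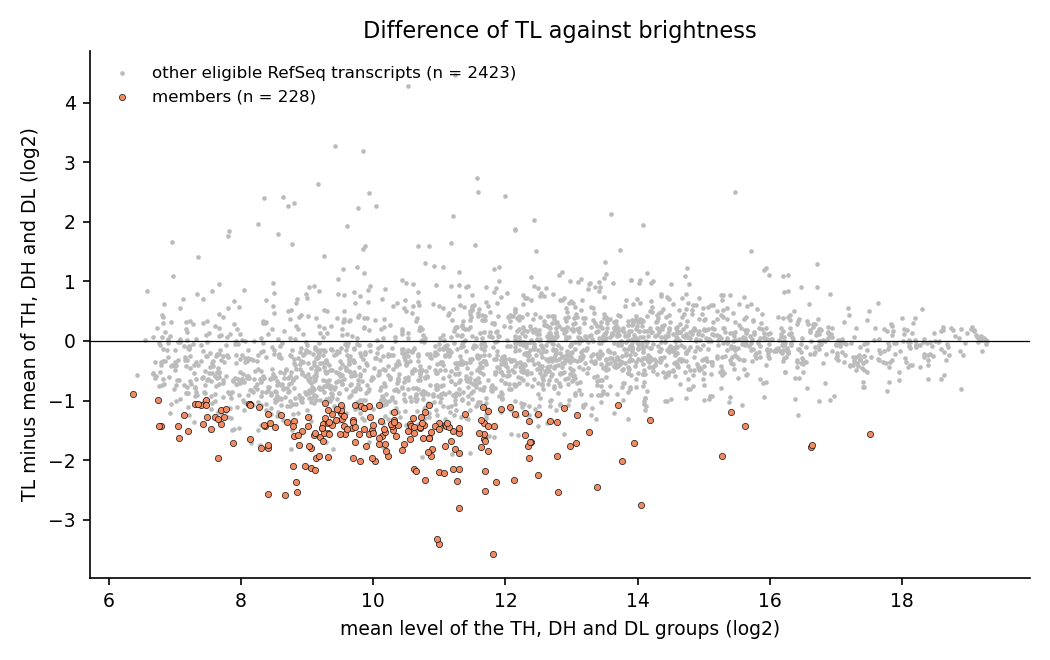
Mean log2 level of the TH, DH and DL groups (x axis) against TL minus that mean (log2, y axis), with 1 point for each of 228 members (orange) and 2423 other eligible RefSeq transcripts (grey). Members lie at or below -0.90 and mostly left of a level of 12, and the grey points spread to both sides of 0.

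A single gene led the members. MYOZ3, myozenin 3, an anchor protein of the muscle Z line, had the largest gap at both of its probes. At the first MYOZ3 probe the levels were 7.64 and 7.51 in TL, 10.28 and 10.17 in TH, 11.72 and 11.69 in DH, and 11.03 and 11.05 in DL. The second MYOZ3 probe had 7.60 and 7.68 in TL, 10.19 and 10.16 in TH, 11.68 and 11.74 in DH, and 11.01 and 10.98 in DL. Both probes put TL lowest, TH next, then DL and DH, with no overlap between groups, and TL minus the mean of the others was -3.42 and -3.32.

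Next came genes of binding, homing and defense. IGFBP2, which binds insulin-like growth factors, had 11.27 and 11.30 in TL, 13.91 and 14.01 in TH, 14.39 and 14.35 in DH, and 13.82 and 13.80 in DL, 6.77-fold lower in TL. MADCAM1, the vessel adhesion molecule to which gut-homing lymphocytes bind, had 8.44 and 8.53 in TL, 11.98 and 12.02 in TH, 11.08 and 11.03 in DH, and 10.83 and 10.81 in DL. FCN1, a ficolin that binds sugars on microbes, had 10.90 and 10.95 in TL, and its other 6 arrays lay between 13.19 and 13.51. These 3 genes share a wide step to TL, but MADCAM1 was highest in TH whereas IGFBP2 was highest in DH.

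APOA4, an apolipoprotein of dietary fat transport, had 6.19 and 6.42 in TL, 8.53 and 8.64 in TH, 8.54 and 8.50 in DH, and 9.43 and 9.46 in DL. OCLN, occludin of tight junctions, had 10.28 and 10.23 in TL, against 12.94 and 12.83 in TH, 13.07 and 13.06 in DH, and 12.43 and 12.39 in DL. MSRB1, a selenoprotein that repairs oxidized methionine, had 9.55 and 9.43 in TL and from 11.64 to 12.16 elsewhere. LY86, which pairs with the RP105 receptor of B cells and macrophages, had 9.85 and 9.74 in TL and from 11.85 to 12.61 elsewhere. PSP-I, a porcine spermadhesin known from seminal plasma, had 6.14 and 6.00 in TL, 7.83 and 7.82 in TH, 10.10 and 10.08 in DH, and 8.08 and 8.06 in DL. DH had the highest levels of the other groups at OCLN, MSRB1, LY86 and PSP-I, by the widest step at PSP-I, while DL was highest at APOA4.

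**Figure D3:**
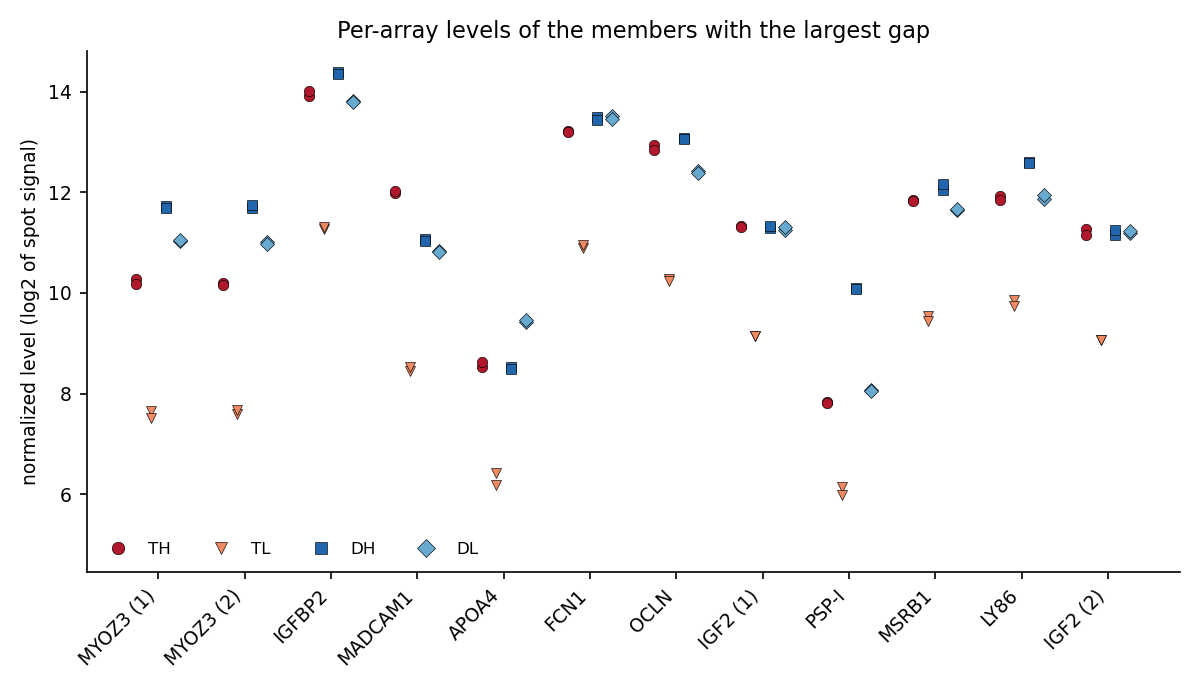
Normalized log2 level of spot signal (y axis) on each of the 8 arrays, 1 point per pig, for the 12 transcripts with a symbol and the largest gap (x axis, numbers in brackets count probes of 1 gene). Both TL points lie below all 6 others at every transcript, as the rule requires, while the order of TH, DH and DL changes from gene to gene.

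Genes of the insulin and IGF axis were 7 members among 20 eligible transcripts of the list (35%), beside 8.6% of eligible RefSeq transcripts. Member counts of the lists that follow stand beside the same 8.6%, and no list was tested for its share of members. IGF2 was a member at all 5 of its probes, which measure 1 gene and are not independent. The widest of its differences came from the probe with 9.14 and 9.15 in TL, 11.33 and 11.30 in TH, 11.28 and 11.33 in DH, and 11.25 and 11.30 in DL, which is 4.45-fold lower in TL. The other IGF2 probes were 4.42-fold, 2.81-fold, 2.64-fold and 2.50-fold lower. TH, DH and DL were nearly level at IGF2, so that TL alone stood apart at this gene.

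IGFALS, the acid labile subunit, had 6.90 and 6.96 in TL, 8.06 and 8.09 in TH, 8.30 and 8.30 in DH, and 8.68 and 8.71 in DL. Of the 20 transcripts of the list, TL lay below the mean of the others for 17 and below all 6 other arrays for 16, with a median of -0.86. Counts of TL below or above all 6 arrays use the deposited values, here and for the lists that follow. Over all eligible RefSeq transcripts TL lay below the mean of the others for 68.96%, with a median of -0.29. It lay below all 6 other arrays for 50.06%. List transcripts outside the rule included IGFBP3 at -0.99, IGF1 at -0.89, SOCS2 at -0.83 and -0.79, and IGF1R at -0.64. GHR, the growth hormone receptor, was higher in TL by 0.55, and IGFBP6 by 0.26. The list holds 5 probes of IGF2, and its median is a description of genes whose members the rule chose.

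The T and NK lymphocyte list gave 1 member, CD3G, of 11 eligible transcripts (9.091%), beside 8.6% of eligible RefSeq transcripts. The B and plasma cell list gave 1, CD79A, of 5 (20%). Other genes known from lymphocytes were members on neither list, among them CD40LG at -1.63, BLNK at -1.32 and RAG2 at -1.63. CD3G, a chain of the T cell receptor complex, had 6.93 and 6.92 in TL, 9.49 and 9.56 in TH, 8.77 and 8.85 in DH, and 8.85 and 8.85 in DL at the member probe. The other CD3G probe had 12.91 and 12.88 in TL and from 12.88 to 13.18 elsewhere, so that the 2 probes of CD3G disagree and the gene is uncertain. All 11 eligible transcripts of the T and NK lymphocyte list had TL below the mean of the others, with a median of -0.87. TL was below all 6 arrays at 7 of them, beside 68.96% and 50.06% of eligible RefSeq transcripts. CD3E was at -1.57, CD3D at -0.96 and -0.87, CD2 at -0.95, CD247 at -0.90 and -0.80, GZMB at -0.58, CD4 at -0.21 and CD8A at -0.04. The summed log2 level of this list was 15.00 to 15.03 in TL, 15.10 to 15.11 in DL, 15.59 to 15.63 in TH and 15.86 to 15.93 in DH, and no list member was at 0. The part of T cell number in these values was not tested.

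CD79A, the signaling chain of the B cell receptor, had 8.38 and 8.56 in TL, 12.43 and 12.50 in TH, 9.66 and 9.62 in DH, and 9.86 and 9.86 in DL. TH therefore stood well above both Duroc groups, and TL stood below them. The 3 probes of XBP1, a factor of plasma cells, were at 0.01, 0.04 and 0.22 and were not members. VPREB1, part of the surrogate light chain of early B cells, had 9.18 and 9.19 in TL, 11.72 and 11.70 in TH, 11.13 and 11.16 in DH, and 12.25 and 12.21 in DL. The summed log2 level of the B and plasma cell list was 18.15 to 18.18 in TL, within the range of 17.91 to 18.54 of the other groups.

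Cytokines, chemokines and their receptors gave 8 members among 59 eligible transcripts (13.56%, beside 8.6%): CCL21, CCL25, CCR10, IL27, IL2RA, IL2RG, IL4R and LTA. IL4R, the receptor chain for interleukins 4 and 13, had 7.23 and 7.29 in TL and from 8.99 to 9.12 on the other arrays, 3.47-fold lower. CCR10, a receptor that guides skin and mucosal lymphocytes, had 8.09 and 8.18 in TL, 10.40 and 10.30 in TH, 9.74 and 9.68 in DH, and 9.66 and 9.60 in DL. IL2RG, the chain shared by several interleukin receptors, had 7.76 and 7.76 in TL and from 9.11 to 9.38 elsewhere. IL2RA, the alpha chain of the interleukin 2 receptor, was not well above background on either TL array and was at least 2.57-fold lower. In this bound and those below, TL is held at the higher of its own value and the lowest signal among transcripts well above background. Over the list the median difference of TL was -0.56, with 44 of 59 transcripts below the mean of the others and 35 below all 6 arrays. Over eligible RefSeq transcripts in general these shares were 68.96% and 50.06%, with a median of -0.29.

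CCL21, a chemokine of lymphatic vessels and lymph nodes, had 9.75 and 9.64 in TL and from 11.09 to 11.41 elsewhere. LTA, lymphotoxin alpha, had 7.94 and 7.97 in TL, 10.06 and 9.96 in TH, 9.20 and 9.20 in DH, and 8.90 and 8.88 in DL. CCL25 was 2.76-fold and IL27 2.95-fold lower in TL. CCL21 was nearly level across TH, DH and DL, while LTA was highest in TH.

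Microbe sensing gave 3 members among 25 eligible transcripts of the Toll-like receptor and NF-kB list (12%, beside 8.6%). TLR9, which detects unmethylated DNA, had 6.57 and 6.44 in TL, 8.59 and 8.60 in TH, 8.25 and 8.31 in DH, and 8.01 and 8.04 in DL. TLR10 had 8.34 and 8.35 in TL, 11.18 and 11.26 in TH, 9.57 and 9.43 in DH, and 9.82 and 9.88 in DL. CD14, the co-receptor for endotoxin, had 9.29 and 9.34 in TL, 10.39 and 10.25 in TH, 10.92 and 10.94 in DH, and 10.54 and 10.58 in DL, and its other probe was at -0.85. MAVS, the adaptor of the RNA sensors, lay just outside the rule with a gap of 0.9966. The macrophage list had no common direction: CD14 was its single member of 8 eligible transcripts, while CD163 was at 0.34, 0.20 and 0.19 and LYZ at -0.03.

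Of the interferon system, IRF3 was the only member among 26 eligible transcripts of the interferon-stimulated list. IRF3, the factor that starts interferon production, had 9.48 and 9.52 in TL and from 10.68 to 11.22 elsewhere. IRF9, a subunit of the factor that interferon receptors activate, was not on that list and was a member at 2 of 3 probes, at 2.98-fold and 3.30-fold lower in TL, with the remaining probe at -0.91. TYK2, the kinase bound to interferon receptors, was 3.08-fold lower at the member probe and at -0.36 at its other probe. The list as a whole had a median of -0.20.

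Among genes of antigen presentation, SLA-DRB1, a class II chain of the swine leukocyte antigen, was a member at 3 of 5 probes. The SLA-DRB1 member probe with the widest step had 14.86 and 14.83 in TL, 16.91 and 16.99 in TH, 16.62 and 16.57 in DH, and 16.32 and 16.36 in DL. The other 2 probes were at -0.57 and -0.80. This gene is highly polymorphic and has close relatives, so that probe binding can differ between breeds and its value is uncertain, although TH and TL are of 1 breed. No other gene among the 29 eligible transcripts of the list was a member. TL lay below the mean of the others for 26 of the 29 and below all 6 arrays for 18. These shares were 68.96% and 50.06% over eligible RefSeq transcripts, and the list median was -0.29 in both. The summed log2 level of the list was 21.59 to 21.63 in TL, 21.84 to 21.88 in DL, 22.07 to 22.10 in TH and 22.11 to 22.13 in DH.

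Genes that set vessel tone gave 3 members of 15 eligible transcripts (20%, beside 8.6%), EDN1, ACE and NOS3. EDN1, endothelin 1, a strong constrictor of lung vessels, had 10.43 and 10.33 in TL, 11.66 and 11.62 in TH, 12.87 and 12.90 in DH, and 12.49 and 12.55 in DL. EDN3, its relative outside the list, was a member at both probes, with 7.96 and 8.04 in TL, 9.22 and 9.33 in TH, 10.50 and 10.48 in DH, and 10.28 and 10.31 in DL at the first. Both endothelins had the same order, with TL lowest, then TH, DL and DH.

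ACE had 8.23 and 8.33 in TL, 9.89 and 9.95 in TH, 10.33 and 10.33 in DH, and 10.39 and 10.41 in DL, 3.82-fold lower in TL. NOS3, the endothelial nitric oxide synthase, had 7.34 and 7.40 in TL and from 8.41 to 9.05 elsewhere at the member probe. Its other probe was at -0.16, so that the 2 probes of NOS3 disagree. The receptors EDNRA and EDNRB were at -0.25 and -0.12. Endothelial markers had 1 member of 8 eligible transcripts, NOS3 itself, and their summed log2 level of 17.62 to 17.64 in TL lay within the 17.26 to 17.81 of the other groups.

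Lipid genes were spread over several lists. SREBF1, the factor that drives fatty acid synthesis, was a member at both probes, with 9.85 and 9.91 in TL, 12.41 and 12.20 in TH, 11.15 and 11.22 in DH, and 11.70 and 11.72 in DL at the first, 3.61-fold lower. LIPE, hormone-sensitive lipase, had 11.33 and 11.33 in TL and from 12.57 to 12.76 elsewhere. CIDEC, a droplet protein of fat cells, had 9.83 and 9.87 in TL, 10.91 and 10.90 in TH, 12.19 and 12.19 in DH, and 11.80 and 11.82 in DL. ACADS, which starts oxidation of short fatty acids, was 2.49-fold lower at the member probe and at -0.42 at its other probe. DGAT1, which makes triglyceride, was 2.10-fold lower. PLTP, the phospholipid transfer protein, had 8.89 and 8.93 in TL, 12.19 and 12.17 in TH, 10.83 and 10.80 in DH, and 10.77 and 10.78 in DL at the first of its 2 member probes.

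The cholesterol and fatty acid list as a whole had 4 member transcripts of 51 and a median of -0.15, and the adipocyte list had 2 of 12 and a median of -0.27. PNPLA2, adipose triglyceride lipase, was a member at 2 of 3 probes, 2.90-fold and 2.62-fold lower, with the remaining probe at -0.71. PLIN3, another droplet protein, was 2.92-fold lower. A list of lipid droplet and triglyceride genes, drawn up after the values were seen, held 8 members of 16 eligible transcripts with a median of -1.05, and its direction is therefore no independent evidence. The summed log2 level of the adipocyte list was 17.61 to 17.64 in TL, 17.65 to 17.66 in DL, 17.71 to 17.74 in DH and 18.14 to 18.21 in TH, and LEP, which fat cells secrete, was higher in TL by 0.97.

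Detoxification genes gave 6 members of 34 eligible transcripts (17.65%, beside 8.6%). CYP1A1, a cytochrome P450 that aryl hydrocarbon receptor ligands induce, had the lowest TL value against the others of all members. CYP1A1 had 8.21 and 8.25 in TL, 9.22 and 9.33 in TH, 12.30 and 12.28 in DH, and 13.86 and 13.84 in DL. The 11.9-fold difference of TL thus rested mainly on the high Duroc levels, since TL lay only -1.05 from TH. CYP2D25, a pig P450 that also hydroxylates vitamin D, had 7.24 and 7.28 in TL, 9.83 and 9.96 in TH, 8.59 and 8.58 in DH, and 9.09 and 9.05 in DL. ABCG2, an efflux pump, was a member at 2 of 3 probes, 2.85-fold and 2.58-fold lower, with the remaining probe at -0.61. CYP2A19 was 2.67-fold lower at the member probe, but its other probe had 11.81 and 11.81 in TL beside 11.81 and 11.83 in DH, so that the 2 probes disagree. AKR1A1, an aldehyde reductase, was 2.15-fold lower at the member probe and at -0.54 at its other probe, and the list median was -0.36.

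Energy metabolism was represented by single genes. GPI, the second enzyme of glycolysis, had 9.28 and 9.15 in TL and from 10.52 to 11.07 elsewhere, and it was 1 member of 11 eligible glycolysis transcripts. PC, pyruvate carboxylase, which feeds the citric acid cycle, had 7.15 and 7.36 in TL and from 8.76 to 9.24 elsewhere, 1 member of 19. PDK1, which restrains pyruvate dehydrogenase and responds to low oxygen, had 9.79 and 9.68 in TL, 11.59 and 11.53 in TH, 11.02 and 10.91 in DH, and 10.85 and 10.82 in DL. PDK1 and EDN1 were the only members among 17 eligible hypoxia targets, a list whose median was 0.03. SIRT2, a deacetylase that uses NAD, was a member at both probes, 4.05-fold and 2.28-fold lower.

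Some other members are known from muscle or as actin proteins, a choice made after the values were seen. ANKRD1, a stress-responsive muscle ankyrin repeat protein, had 11.17 and 11.25 in TL, 13.04 and 12.94 in TH, 12.42 and 12.50 in DH, and 13.46 and 13.52 in DL. NRAP, which anchors actin in muscle, was 2.54-fold lower, with its other probe at -1.16. TMOD3, which caps actin filaments in most cells, had 10.02 and 9.99 in TL, 11.03 and 11.10 in TH, 11.51 and 11.58 in DH, and 12.47 and 12.46 in DL. None of the 8 eligible skeletal and cardiac muscle markers was a member. Of them 7 were below the mean of the others, from TNNI2 at -1.47 to MYH1 at -0.06. Below all 6 other arrays were 3, beside 68.96% and 50.06% of eligible RefSeq transcripts. Their summed log2 level was 12.76 to 12.85 in TL, 12.83 to 12.86 in DL, 13.27 to 13.28 in TH and 13.40 to 13.47 in DH, and its part in the MYOZ3 values was not tested.

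Cell junctions and cytoskeleton gave 3 members of 63 eligible transcripts, OCLN, JUP and RDX, beside a list median of 0.00331. JUP, plakoglobin of desmosomes, had 8.52 and 8.37 in TL, 9.73 and 9.69 in TH, 9.99 and 10.04 in DH, and 10.21 and 10.22 in DL. RDX, radixin, which ties membranes to actin, was 2.16-fold lower at the member probe. Its other probe had 12.12 and 12.30 in TL beside 12.21 and 12.20 in TH, so that TL was not apart from TH there. Of the coagulation genes, F8, TFPI and F10 were 3 members of 32 eligible transcripts. F8, the factor missing in hemophilia A, had 9.77 and 9.63 in TL, 11.56 and 11.43 in TH, 10.94 and 10.90 in DH, and a mean of 11.03 in DL. TFPI, the inhibitor of the tissue factor pathway, was 2.44-fold and F10 2.16-fold lower.

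Signaling genes followed the same description. BMP15, an oocyte growth factor, had 6.69 and 6.62 in TL, 9.27 and 9.26 in TH, 7.88 and 7.70 in DH, and 8.14 and 8.16 in DL. BMP7 was 2.53-fold and TGFBR1, the type I receptor of TGF-beta, 2.11-fold lower. This made 3 members of 23 in the TGF-beta, BMP and Wnt list (13.04%, beside 8.6%). MAPK12 was 2.91-fold lower, 1 of 17 MAP kinase transcripts, with its other probe at -1.27. CCND2, cyclin D2, had 9.72 and 9.62 in TL and at most 11.18 elsewhere, 2.66-fold lower, whereas its brighter probe was at -0.51, with 14.18 and 14.24 in TL and from 14.53 to 14.93 elsewhere. CCND2 was 1 member of 18 cell cycle transcripts, of which 17 lay below the mean of the others, beside 68.96% of eligible RefSeq transcripts, with a median of -0.77. FZR1, an activator of the anaphase-promoting complex, was a member at all 3 of its probes, 3.35-fold, 3.27-fold and 2.90-fold lower. MC1R, the melanocortin receptor of coat color, had 6.93 and 6.98 in TL, 10.96 and 10.90 in TH, 8.20 and 8.07 in DH, and 8.29 and 8.27 in DL.

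**Figure D4:**
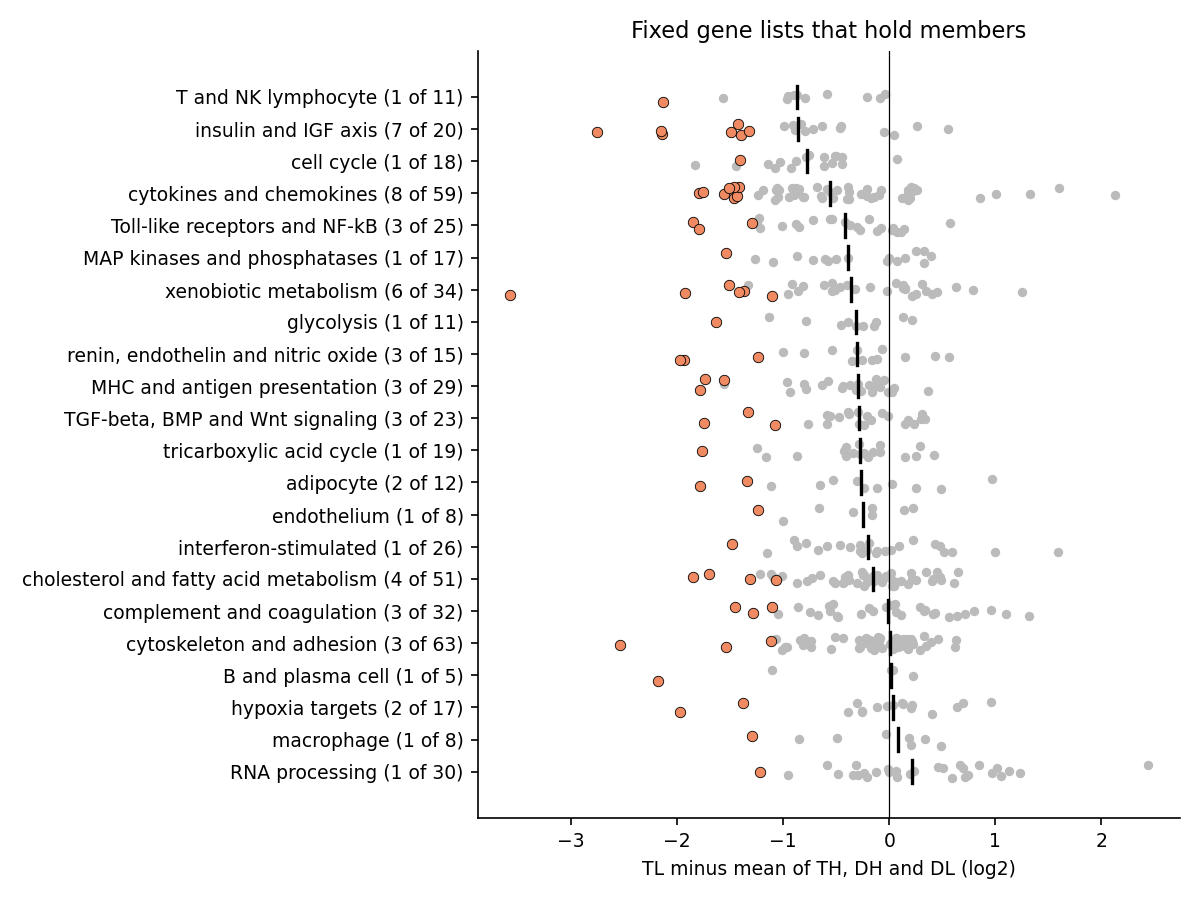
TL minus the mean of TH, DH and DL (log2, x axis) for every eligible transcript of the 22 gene lists that hold a member (y axis, with members of eligible transcripts in brackets). Orange points are members, grey points are the rest, and black bars are list medians, which run from -0.87 for T and NK lymphocytes to 0.21 for RNA processing.

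Many lists held few members or none. Over all eligible RefSeq transcripts 8.6% were members, with 4.167% at a mean level from 12 to 14 and 1.143% at 14 or more. The part of list size and signal level in the counts below was not tested. RNA processing had 1 of 30, SNRPA of the U1 spliceosome particle at 2.33-fold lower, with a list median of 0.21. No member came from the 50 eligible transcripts of the cytosolic ribosome, 22 of translation factors, 26 of proteasome and ubiquitin, 17 of oxidative phosphorylation, 22 of antioxidant enzymes, 22 of iron and heme, 15 of immediate early genes, 11 of apoptosis or 8 of alveolar ion and water transport. The 19 transcripts of heat shock proteins and chaperones held none either, and their median was 0.62. TL lay below the mean of the others for only 1 of these 19 and above all 6 other arrays for 15. Markers of alveolar type II cells (4), type I cells (5), secretory airway cells (6), smooth muscle (5), fibroblasts and matrix (7), neutrophils (4) and erythroid cells (1) held none, and no transcript of ciliated or mesothelial cells was eligible. Secretory airway markers also lay on the high side in TL, with all 6 transcripts above the mean of the others, by 0.41 to 4.47. Of eligible RefSeq transcripts in general, 68.96% had TL below that mean. The secretory list had a median of 1.02, and 3 of its transcripts were above all 6 other arrays. BPIFA1, a secreted airway defense protein, had 15.71 and 15.71 in TL, 14.29 and 14.24 in TH, 10.45 and 10.60 in DH, and 8.99 and 8.86 in DL at its brighter probe. The summed log2 level of the secretory list was 16.77 to 16.81 in TL, 16.07 to 16.09 in TH, 13.95 to 13.96 in DH and 13.61 to 13.62 in DL, and no list member was at 0. Both Tibetan groups thus lay far above both Duroc groups in this sum, and the step from TH to TL was smaller. The neutrophil list had a median of 0.58, with the granule peptides PR39 and NPG4 higher by 1.76 and 1.21 and MMP9 at -0.47, and its summed log2 level of 17.21 to 17.35 in TL lay within the 17.20 to 17.43 of the other groups. The part of these cells in the values of members was not tested. In all, 54 members were on at least 1 of these lists and 174 on none.

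Further groups were assembled from the member names after their values had been seen, so that their counts describe the choice and support nothing. Genes of lysosome-related organelles, the compartments that include melanosomes, platelet granules and lamellar bodies, had 6 members of 17 eligible transcripts, HPS1 at both probes and HPS4, HPS6, BLOC1S3 and RAB27A at 1 each. The other probes of HPS4 and RAB27A were at -0.60 and -0.87. BLOC1S3 had 8.61 and 8.68 in TL and from 9.87 to 10.39 elsewhere, and HPS6 had 10.06 and 10.07 in TL and from 11.34 to 11.86 elsewhere. All 17 transcripts of this group lay below the mean of the others, and AP3B1, DTNBP1, HPS3, HPS5, BLOC1S5, BLOC1S6 and MLPH were not members. Peptide hormones and neuropeptides had 8 members of 12 eligible transcripts, CCK, EDN1, EDN3, HCRT, NPPC, NPW and TAC3. TAC3, the precursor of neurokinin B, had 8.97 and 8.72 in TL, 11.86 and 11.86 in TH, 10.91 and 10.83 in DH, and 10.43 and 10.50 in DL. NPPC, C-type natriuretic peptide, was well above background on only 1 TL array.

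Imprinted genes, of which only the copy from 1 parent is active, had 7 members of 17 eligible transcripts, all from IGF2 and PEG10. PEG10, a placental gene of retroviral origin, had 9.05 and 8.88 in TL, a mean of 11.03 in TH, 10.35 and 10.29 in DH, and 11.11 and 11.15 in DL at its widest probe, and its remaining eligible probe was at -1.49. MEST was at -1.01 and PLAGL1 at 0.60. Receptors and kinases of JAK-STAT signaling had 6 members of 30 eligible transcripts, IL2RA, IL2RG, IL4R, TYK2 and IRF9 at 2 probes, and a median of -0.27. LOC100157017 and RETNLB were, like IL2RA, not well above background on either TL array, and were at least 2.70-fold and 1.86-fold lower.

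Several genes were measured by more than 1 probe. Of the 169 member genes, 18 were members at 2 or more probes, and at 12 of these every eligible probe was a member. Such pairs included HPS1 at 2.36-fold and 2.14-fold lower, CEND1 at 2.97-fold and 2.24-fold, KLHDC3 at 4.44-fold and 2.84-fold, and MSRB1 at 5.17-fold and 2.69-fold. At 45 genes another eligible probe was not a member. Of these 49 probes, 43 had TL below the mean of the others, 38 had both TL arrays below all 6 others in the deposited values, and 6 had TL above. Over all eligible RefSeq transcripts TL was below the mean of the others for 68.96%, and both TL arrays were below all 6 others in the deposited values for 50.06%.

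The opposed probes show where a gene cannot be read from its member probe. SERPINB9, an inhibitor of granzyme B, was at -1.77 at the member probe and at 1.43 at the other. CNPY3, a chaperone of Toll-like receptors, was at -1.16 and 1.10, NLN, neurolysin, at -1.07 and 0.94, MFGE8, which bridges dying cells to phagocytes, at -1.29 and 0.84, and AMH, anti-Mullerian hormone, at -1.13 and 0.38. Probes of 1 symbol can bind different transcripts, and which transcript each of these probes binds was not analysed here.

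The rule did not use differences among TH, DH and DL, and these were tested by limma over all 34401 tested transcripts with Benjamini-Hochberg adjustment at the false discovery rate of the study's methods, 0.0001. TH and DH differ in breed, in the move and in slide at high altitude. TH and DL, neither of them moved, differ in breed and altitude within 1 slide, and DH and DL differ in altitude, in the move and in slide, so that no comparison isolates 1 factor. Between TH and DH, 17 members passed, which is 7.456% beside 7.62% of eligible RefSeq transcripts and 4.42% of all tested. TH was higher at 7 of these and lower at 10, beside 4.6% and 3.02% of RefSeq transcripts. Between TH and DL, 18 members passed, 7.895% beside 10.6% of RefSeq transcripts and 6.47% of all tested, with TH higher at 10 and lower at 8, beside 6% and 4.56%. Between DH and DL, 5 passed, 2.193% beside 3.7% and 3.1%, with DH higher at 2 and lower at 3, beside 1.74% and 1.96%. The shares of members were near those of RefSeq transcripts in general or below them, and the median differences of members were 0.01, 0.14 and 0.06 on the log2 scale.

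These counts depend on the arrays, and so do those over all tested transcripts. The TL arrays enter these comparisons only through the shared estimate of spread. Without the TL arrays, 0.177%, 0.0378% and 0% of all tested transcripts passed between TH and DH, TH and DL, and DH and DL. The shares of members were then 0.877%, 0.439% and 0%. Leaving out either TH array or either DH array left 0 members called between TH and DH, and leaving out either TL or either DL array left from 1 to 2. Between TH and DL, 0 were left without any 1 TH or DL array and from 1 to 2 without any 1 TL or DH array, and between DH and DL 0 were left without any 1 of the 8 arrays. In these fits between 128 and 164 members had an unadjusted limma p under 0.05. With all 8 arrays 162, 160 and 147 members did (71.05%, 70.18% and 64.47%), beside 67.94%, 72.69% and 66.69% of eligible RefSeq transcripts and 58.04%, 61.51% and 59.82% of all tested. All 40 called differences, of 26 transcripts, kept their direction and an adjusted p under 0.05 in each of 17 other fits, whereas none stayed under 0.0001 in all of them.

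CYP1A1 had the widest called difference between TH and DH and between TH and DL. TH minus DH was -3.01 with an SE of 0.05 (limma, adjusted p = 5.4e-06), TH minus DL was -4.57 with an SE of 0.05 (limma, adjusted p = 2.7e-06), and DH minus DL was -1.56 with an SE of 0.05 (limma, adjusted p = 4.1e-05). The levels thus rose from both Tibetan groups to DH and on to DL, without overlap. CD79A was 2.83 higher in TH than in DH and 2.61 higher than in DL (limma, adjusted p = 1.0e-05 and 1.1e-05), and MC1R was 2.79 and 2.65 higher (limma, adjusted p = 7.9e-06 and 8.7e-06). For both genes, TH was highest, DH and DL were close to each other, and TL was lowest.

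TLR10, PLTP and MADCAM1 also rose in TH against both Duroc groups. TLR10 was 1.72 above DH and 1.37 above DL, PLTP 1.37 and 1.40, and MADCAM1 0.94 and 1.18. BMP15 and CYP2D25 were higher in TH than in DH by 1.48 and 1.31, and LTA, CEND1, HYAL3, CDK5 and AMBN were higher in TH than in DL by 1.12, 0.99, 0.94, 0.93 and 0.87. HYAL3 is a hyaluronidase, CDK5 a kinase of neurons and AMBN an enamel protein.

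In the other direction, TH was below DH at PSP-I by 2.59 and 2.27 at its 2 probes, at MYOZ3 by 1.53 and 1.48, at CIDEC by 1.29, at EDN1 by 1.25, at EDN3 by 1.21 and 1.20, and at GGT1, which breaks down glutathione, by 1.06. Against DL, TH was lower at TMOD3 by 1.40, at SERPINA7, thyroxine-binding globulin, by 1.20, at the unnamed transcript A_72_P317723 by 1.07, at both EDN3 probes by 1.04 and 1.02, at CIDEC by 0.91 and at 1 MYOZ3 probe by 0.82. Thus EDN3, CIDEC and MYOZ3 were lower in TH than in both Duroc groups and lower still in TL.

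Between the Duroc groups, PSP-I was higher in DH by 2.11 and 2.02 at its 2 probes (limma, adjusted p = 8.1e-05 and 3.4e-05). VPREB1 was lower in DH by 1.09 and TMOD3 by 0.92, beside the 1.56 of CYP1A1. Since DH and DL lie on different slides, altitude, the move and the slide cannot be told apart in this comparison.

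**Figure D5:**
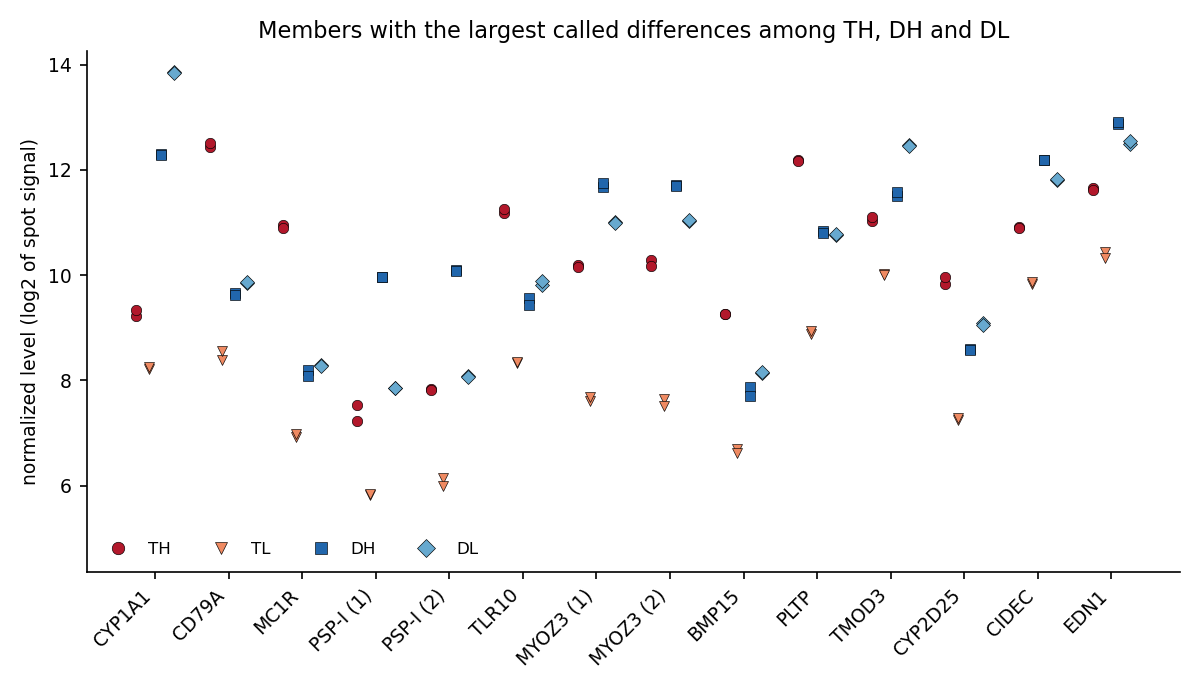
Normalized log2 level (y axis) on each of the 8 arrays, 1 point per pig, for the 14 transcripts (x axis) with the widest called difference among TH, DH and DL. TH lies highest at CD79A, MC1R, TLR10, BMP15, PLTP and CYP2D25, a Duroc group lies highest at the others, and TL is lowest throughout by the rule.

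The order of the other groups was mixed over the members. TH had the highest mean at 97 members, DH at 80 and DL at 51 (42.54%, 35.09% and 22.37%), beside 38.74%, 24.9% and 36.36% of eligible RefSeq transcripts. Both TH arrays lay above all 4 Duroc arrays at 85 members (37.28%), beside 32% of eligible RefSeq and 22.9% of all tested transcripts. Both DH arrays lay above both DL arrays at 112 members (49.12%), beside 39.3% of RefSeq and 38.5% of all tested transcripts, and below them at 81 (35.53%), beside 47.5% and 41%. The means of TH, DH and DL spanned a median of 0.48, under 0.5 at 118 members (51.75%) and over 1 at 32 (14.04%), near the median of 0.47 and the 52.62% and 14.67% of eligible RefSeq transcripts.

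The rule drew its line through a continuous run of values. Just inside it were DHRS4, a retinal reductase, with a gap of 1.008 in the deposited values, the unnamed transcript A_72_P064936 with 1.004 and NLN with 1.001. Just outside were OPRL1, the nociceptin receptor, with 0.9975, MAVS with 0.9966 and CCND3, cyclin D3, with 0.9935. The TL arrays lay below the others at all 228 members in each of 5 other sets of values, over the arrays that had a value. In the values used here 1 TL array had none at ASB6 and 1 DL array none at PTH1R. A gap over 1 remained at 176 members in the values used here, at 219 with quantile normalization of the processed signals, at 131 with scaling of them to the 75th percentile, at 100 with that scaling of the raw signals and at 46 with local background and an offset of 50. With the 75th percentile of processed signals the median TL difference moved from -0.15 to -0.25 over all tested transcripts and from -0.29 to -0.59 over eligible RefSeq transcripts, while that of members was -1.39.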

How the data were processed

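The authors scanned 8 one-color Agilent porcine 4 × 44K arrays with a G2505B scanner and extracted each spot's intensity with Feature Extraction (10.7.3.1 by the file headers and methods, 9.1 by the submitters' processing notes). The authors also deposited 1 table of log2 values, normalized by RMA per the methods. Membership and gaps were read from these deposited log2 values, and whether their base was the raw or the processed intensity is not stated. All other levels were computed from the deposited median spot intensity: control spots and outlier flags were left out after a normal-exponential correction (offset 0) and quantile normalization, log2 was taken and spots of a probe were averaged. Where an outlier spot was dropped, a mean rests on the group's other array, as for PTH1R in DL and ASB6 in TL.

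Transcripts that any of the 8 arrays had well above background (34401) were tested. limma 3.58.1 in R 4.3.3 fitted the 4 group means, and p-values were adjusted by Benjamini-Hochberg over these transcripts at a threshold of 0.0001, the FDR of the study's two-way model. Python 3.11.15, numpy 2.4.6, pandas 2.3.3 and matplotlib 3.10.9 served for the rest. Steps were tested on simulated data. The number of arrays limits the precision. Symbols came from RefSeq accessions (Sscrofa11.1 gene table), which named 192 of 228 members. No sequence is printed.

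Members, gene lists and tests were chosen with earlier results of these data known. The text names the 12 members with the largest gap, the first 2 of each gene list, those next to the threshold, the 3 widest called differences of each comparison, genes with several member probes and 5 with an opposed probe. Other genes were chosen after their values were seen. Alternatives were other signals and scalings, filters, thresholds, no moderation, a replicate block and each array left out. Results for a few genes are not reported here.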

Additional observations from a re-analysis of the deposited data

Results flagged for a closer look

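The altitude difference ran in opposite directions in the breeds for 81 members: both DH arrays lay below both DL arrays, while TH lay above TL, a direction that the rule fixes for every member. The same order of DH and DL held for 47.5% of eligible RefSeq transcripts and 41% of all tested transcripts, and the difference between the breeds was not tested. Among the named genes, CYP1A1 had a DH minus DL difference of -1.56, with the lower level at high altitude. Its TL minus TH difference was -1.05, with the lower level at low altitude. This difference between the breeds was not tested either.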

How the results depend on the processing

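The number of members was 228 by the rule, 46 with local background and an offset of 50, 596 with a gap over 0.5 and 51 with a gap over 1.5. It stayed between 164 and 249 under the other signals, filters, curated accessions and each array left out in turn. Members called at 0.0001 between TH and DH, TH and DL, and DH and DL were 17, 18 and 5. They were 37, 45 and 26 with processed signals at the 75th percentile, 32, 37 and 19 with quantile normalization of those signals, 54, 53 and 37 with local background and an offset of 50, and 32, 37 and 20 with the deposited values. They were 59, 60 and 38 among transcripts well above background on all 8 arrays, 12, 10 and 2 with no filter, 3, 2 and 0 without moderation and 2, 1 and 0 without the TL arrays. At an adjusted p under 0.05 they were 149, 151 and 140, and under 0.01 they were 113, 116 and 102. Of all tested transcripts 51.9%, 56.9% and 54.6% passed 0.05 and 35.9%, 42.5% and 39% passed 0.01. At 0.0001 between 9.33% and 15.6% did under the other signals, 19.4%, 26.7% and 21.1% of those well above background on all 8 arrays, 1.97%, 2.6% and 0.635% with no filter, and at most 0.552% without moderation, with a replicate block or without any array. With each array left out they ranged from 0 to 2, from 0 to 2, and from 0 to 0. Where DH minus DL had 0 calls by limma, 143 members without moderation and 150 without the TL arrays had an unadjusted p under 0.05. The causes were not tested.

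With the replicate number as a block, 1, 1 and 0 members were called, and 158, 157 and 146 had an unadjusted p under 0.05. Deviations of samples with the same number correlated between -0.0675 and 0.152, so that the numbers did not pair the pigs. Slide could not be fitted as a block, since it is the breed by altitude interaction. Of 390 values of the gap of named members under other signals, 313 moved by more than the spread between replicates and 77 did not, with no change of sign. Of 153 refits of the widest called differences, 69 stayed under 0.0001 and 84 did not, all in the same direction.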
